A study of Mus musculus with 4 samples.

Results

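The 10 genes described here serve the presentation of peptides on MHC class I molecules: *H2-K1*, *H2-D1*, *B2m*, *Tap1*, *Tap2*, *Tapbp*, *Psmb8*, *Psmb9*, *Psmb10* and *Nlrc5*. They were taken as a named list, matched by gene identifier, and all 10 were found among the 31950 identifiers that the matrices of both genotypes share. Their transcripts were counted by single-cell RNA-Seq in lamina propria cells of the small intestine from WT mice and from *A20ZF7* mice, which carry a knock-in change in the seventh zinc finger of A20, the part that binds linear ubiquitin. Each genotype is 1 library made with a 5′ kit from 2 pooled mice, aged 12 weeks, whose cells had been depleted of other lineages to enrich T cells and innate lymphoid cells (ILCs). The *A20ZF7* allele is in every cell of the mouse, so a difference in a cell class may lie in that class or in its surroundings, which these libraries cannot tell apart. Counts per gene do not show the knock-in change, so the genotype label could not be checked.

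MHC class I molecules display peptides from proteins made inside the cell to CD8+ T cells. The proteasome cuts the proteins, its immunoproteasome form with Psmb8, Psmb9 and Psmb10 in place of the standard catalytic subunits, and the transporter made of Tap1 and Tap2 carries the peptides into the endoplasmic reticulum. There tapasin, the product of *Tapbp*, holds the heavy chain (H2-K1 or H2-D1) with its light chain β2-microglobulin (*B2m*) until a peptide is bound. Nlrc5 is the transactivator of class I genes, and interferons raise the expression of most of this machinery in many cell types, stromal cells included.

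In the mm10 build (GRCm38, GENCODE release M21) 7 of the 10 genes lie in the MHC on chromosome 17, between positions 33915899 and 35267499, with *Tap1*, *Tap2*, *Psmb8* and *Psmb9* next to each other. *Psmb10* and *Nlrc5* are on chromosome 8 and *B2m* is on chromosome 2. RefSeq promoter windows (GRCm38.p6) were given for 8 of the 10 genes, with *Tap2* and *Nlrc5* the others. The stretches upstream of *H2-K1* (chr17:34000348-34000547, minus strand) and of *B2m* (chr2:122147487-122147685, plus strand) are shown because both chains form the class I molecule and both genes stood higher in *A20ZF7* fibroblasts. Each runs 5′ to 3′ up to the start of the gene, and capitals mark matches, on either strand, to the motif TGACG, to the motif ATTGG, to GAANNGAAA, to an NF-κB motif and to the core of an interferon-stimulated response element.
H2-K1: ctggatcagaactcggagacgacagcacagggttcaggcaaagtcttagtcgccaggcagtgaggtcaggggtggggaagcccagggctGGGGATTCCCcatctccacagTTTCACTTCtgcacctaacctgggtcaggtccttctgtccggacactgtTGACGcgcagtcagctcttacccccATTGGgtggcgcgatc
B2m: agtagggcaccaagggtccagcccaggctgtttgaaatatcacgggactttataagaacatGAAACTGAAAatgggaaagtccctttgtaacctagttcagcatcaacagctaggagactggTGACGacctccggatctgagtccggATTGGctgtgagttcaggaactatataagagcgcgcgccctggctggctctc

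The first 2 marked motifs of *H2-K1* lie within 30 bases (chr17:34000429-34000458, minus strand) and recur in *H2-D1* (chr17:35262923-35262952, plus strand), where 1 base differs. They are shown to make plain how alike the paralogs are: over 140 aligned bases the upstream stretches were 90.7% identical. In *H2-D1* these bases lie before the RefSeq start but inside a longer GENCODE transcript.
H2-K1: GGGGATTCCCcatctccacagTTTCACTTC
H2-D1: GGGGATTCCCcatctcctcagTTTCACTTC

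In the 250 bases before the start, the NF-κB motif, GGGGATTCCC with the fourth and the fifth base free, was found in 1.53% of 32851 promoter windows of 27025 genes and in *H2-K1* and *H2-D1*. GAANNGAAA was found in 6.31% of windows and in the same pair of genes. The core of an interferon-stimulated response element, GAAACTGAAA with the fifth and the sixth base free, was found in 2.98% of windows and in *B2m*. TGACG was found in 17.8% of all windows and in 5 of 8 members, and ATTGG, the letters that NF-Y binds, in 33.8% and in 6 of 8. TGACG followed by ATTGG after 15 to 25 bases was present in 0.381% of windows and in *H2-K1*, *H2-D1* and *B2m*, with a gap of 20 bases in each. *Tap1* and *Psmb9* start 225 bases apart on opposite strands and so share their upstream stretch. The TGACG and ATTGG matches of this pair are the same bases, counted above for each gene. A match of letters is a description of the window and not a bound site.

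The libraries hold 35289432 UMIs (WT) and 54587004 UMIs (*A20ZF7*). Their matrices list 33696 gene identifiers in WT and 32285 in *A20ZF7*, so the genotypes were counted against different gene annotations. Only shared identifiers were used, which hold 35171651 of the WT and 52727058 of the *A20ZF7* UMIs. Annotation goes with genotype, so its effect on a ratio cannot be told apart from that of genotype, the paralogous *H2* genes included. The cells kept were 14704 in WT (median depth 1060 UMIs) and 43162 in *A20ZF7* (853 UMIs). Cell classes were gated on UMIs of marker genes, none of which is a member, and 8 classes had at least 50 cells in both genotypes. The T cell gate took 1972 WT and 10033 *A20ZF7* cells, the ILC gate 898 and 1266, and the fibroblast gate 5542 and 12649. Levels are given as CPM, UMI counts of a gene summed over the cells of a class and scaled to a common total, and the ratio is the CPM in *A20ZF7* over that in WT. With 1 library per genotype there is no test between genotypes: intervals are 95% intervals for counting error only, and 1.5-fold serves as a rule of size. The WT mice can be told apart by hashtag 7 and hashtag 8, which gives a spread between animals for WT only, and no hashtag values were used for *A20ZF7*. RNA outside cells was read from barcodes with 1 to 20 UMIs, which hold 541729 UMIs in WT and 624535 in *A20ZF7*. Counts of levels above or below this free RNA leave out its own counting error. Of 28848 WT and 52626 *A20ZF7* barcodes with at least 200 genes, 2101 occurred in both libraries, and the overlap by chance was not estimated.

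In T cells, the genes of class I presentation differed little between genotypes. None of the 10 passed 1.5-fold in either direction, where 11.0% of the 10555 genes tested passed it upward and 7.02% downward, and the median ratio was 1.01 against 1.02 over all genes tested. *H2-K1*, a classical class I heavy chain, stood at 2069 CPM in WT and at 2054 CPM in *A20ZF7*, a ratio of 0.993 (0.963 to 1.02). The mice of hashtag 7 and hashtag 8 had 2150.4 and 2085 CPM, so the *A20ZF7* level lay just below both. The mouse levels hold only WT cells with a hashtag call. Over WT T cells without a call the ratio was 1.15 (1.06 to 1.25).

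*H2-D1*, the other classical heavy chain, was lower in *A20ZF7* T cells, at 1299.8 CPM against 1537 CPM, and both WT mice (1478 and 1606 CPM) were above it, a ratio of 0.846 (0.815 to 0.877). *B2m* stood at 2608 CPM against 2706 CPM, a ratio of 0.964 (0.938 to 0.99). *Tap1*, a subunit of the peptide transporter, showed the highest ratio of the list in T cells at 1.49 (1.28 to 1.73), with 128 CPM in *A20ZF7*, 85.8 CPM in WT and 75.9 and 100.8 CPM in the WT mice. Its partner *Tap2* had a ratio of 1.26 (1.09 to 1.46) and *Tapbp* one of 1.15 (1.01 to 1.31). These 3 loading genes were the members whose *A20ZF7* level lay above both WT mice.

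The immunoproteasome subunits *Psmb8* (285 against 287 CPM), *Psmb9* (213 against 209 CPM) and *Psmb10* (119 against 128.0 CPM) had ratios of 0.994, 1.02 and 0.934 in T cells, with intervals that include 1. *Nlrc5* stood at 136 against 131 CPM, a ratio of 1.03 (0.914 to 1.17), between the WT mice (121 and 147 CPM). Between the WT mice, ratios of hashtag 7 over hashtag 8 ran from 0.751 to 1.09 over the 10 genes, and 0 passed 1.5-fold, against 6.06% of genes tested between these mice. All 10 levels lay above the free RNA of their library, whose share of T cell UMIs, estimated from *Igha*, was 26.3% in WT and 47.5% in *A20ZF7*. With that share taken off, *Tap1* (1.72) and *Tap2* (1.53) passed 1.5-fold, where 18.4% of genes with a level above 0 left did.

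ILCs, which lack a T cell receptor, gave a similar set of levels with more counting error. Here 2 of 10 members passed 1.5-fold upward and 0 downward, where 10.8% and 8.69% of 5572 genes did, and the median ratio was 1.07. *Tap1* stood at 148 CPM in *A20ZF7* and at 67.1 CPM in WT (79.5 and 71.8 CPM in the mice), a ratio of 2.20 (1.64 to 2.99). *Nlrc5* stood at 107 against 70.3 CPM, a ratio of 1.52 (1.12 to 2.09) that rests on 119 and 66 UMIs. *Psmb9* was higher by 1.26 (1.02 to 1.55) and *H2-D1* lower at 0.904 (0.841 to 0.972), and the intervals of the other 6 genes include 1. The *Nlrc5* ratio turned to 0.934 where cells with at least 1000 UMIs alone were kept.

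Fibroblasts were the large class in which the machinery stood higher in *A20ZF7*. Of the 10 genes 5 passed 1.5-fold upward and 0 downward, where 11.6% and 11.4% of 12933 genes tested did, and the median ratio was 1.54 against 0.953 over all genes tested. The intervals of 9 of the 10 lay above 1, and all 10 levels in *A20ZF7* lay above both WT mice. The mouse levels leave out WT cells without a hashtag call, over which *Tapbp* had a ratio of 0.962. For counts of intervals or of levels above both mice, here and in other classes, no share over all genes was taken. Such counts therefore cannot be set against all genes. Between the WT mice, ratios ran from 0.873 to 1.16 and 0 of 10 passed 1.5-fold, where 5.25% of 8116 genes did.

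Among the chains of the molecule, *H2-K1* stood at 2418 CPM in *A20ZF7* fibroblasts and at 1463 CPM in WT, with 1593 and 1717 CPM in the mice of hashtag 7 and 8. The ratio was 1.65 (1.62 to 1.69) over all WT cells and 1.52 and 1.41 over the single mice. *B2m* stood at 3127 against 2147 CPM (2271 and 2335 CPM in the mice), a ratio of 1.46 (1.43 to 1.48). *H2-D1* stood at 1988 against 1508 CPM (1550.0 and 1644 CPM in the mice), a ratio of 1.32 (1.29 to 1.35), the lowest of the 3 chains. Both heavy chains and the light chain thus stood higher.

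The transporter and loading genes parted from each other in fibroblasts. *Tap1* stood at 118 against 51.2 CPM (53.6 and 61.3 CPM in the mice), a ratio of 2.31 (2.06 to 2.59). *Tap2* stood at 90.5 against 63.3 CPM (66.4 and 75.1 CPM in the mice), a ratio of 1.43 (1.29 to 1.59). *Tapbp*, the tapasin gene, was at 244 CPM in *A20ZF7* and 241 CPM in WT, a ratio of 1.01 (0.955 to 1.07), and is the member without a difference beyond counting error. So within 1 loading complex the ratio went from about no difference to over 2-fold.

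The immunoproteasome subunits *Psmb8* and *Psmb9* passed 1.5-fold. *Psmb8* stood at 234 against 143 CPM (176 and 163 CPM in the mice), a ratio of 1.63 (1.52 to 1.75), and *Psmb9* at 187 against 100.1 CPM (136 and 119 CPM in the mice), a ratio of 1.87 (1.72 to 2.03). *Psmb10*, whose gene lies outside the MHC, stood at 149 against 123 CPM (135 and 117 CPM in the mice), a ratio of 1.21 (1.12 to 1.31). The transactivator *Nlrc5* had the highest ratio of the list, 2.42 (2.10 to 2.80), at 78.6 against 32.5 CPM. Both levels lay below that of *Nlrc5* in free RNA, 83.3 CPM in *A20ZF7* and 36.9 CPM in WT. The WT mice had 50.1 and 47.5 CPM of *Nlrc5*, over which the ratio was 1.57 and 1.65.

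**Figure D1:**
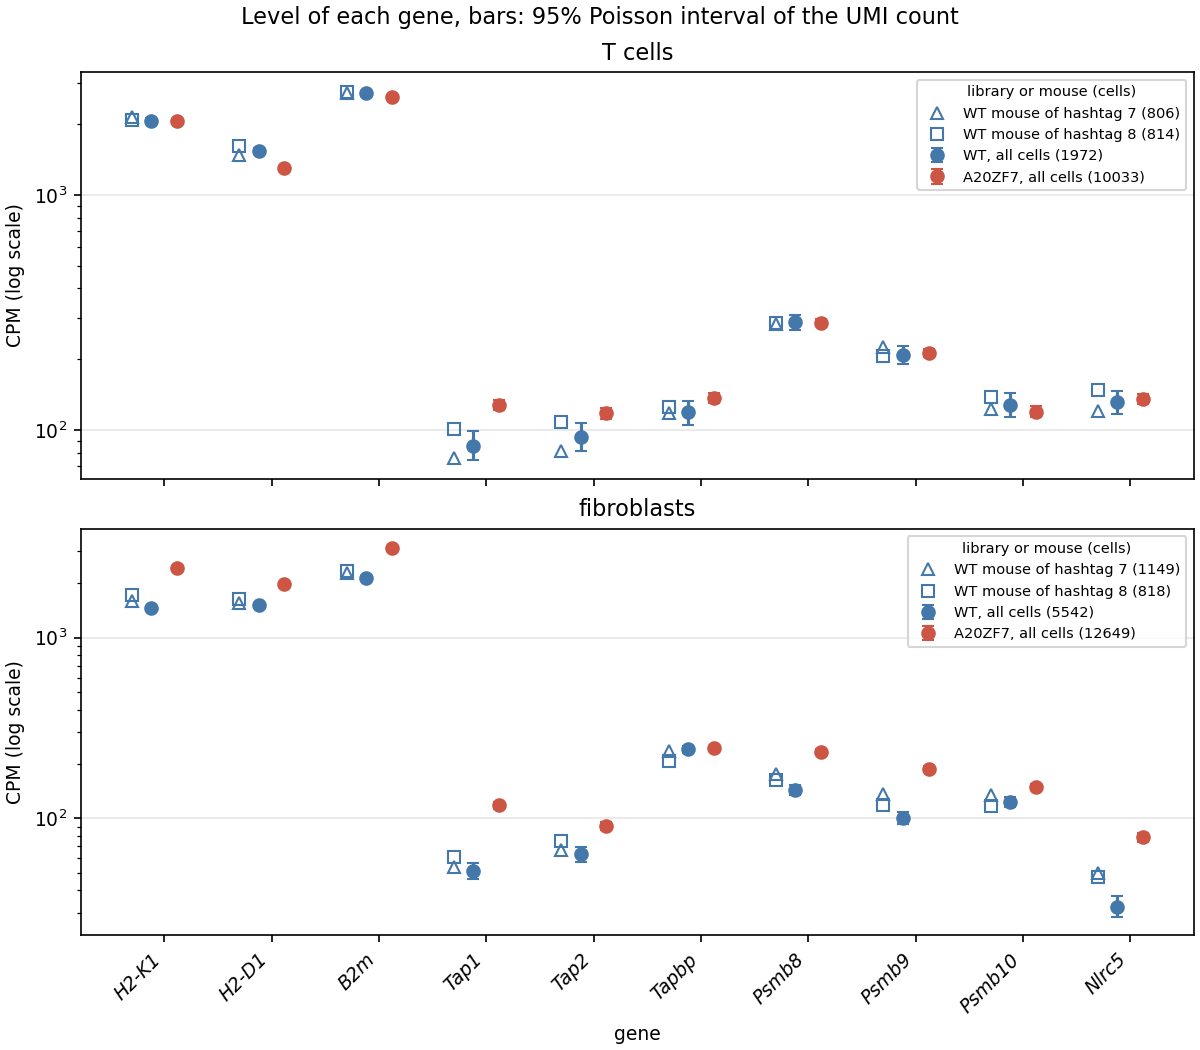
Level of the 10 genes (CPM, log scale) in T cells and in fibroblasts, with filled circles for all cells of a library, open symbols for the WT mice and bars for the 95% Poisson interval of the count. In fibroblasts the *A20ZF7* level lies above both WT mice for all 10 genes, in T cells for 3. The mouse levels leave out WT cells without a hashtag call, and no share over all genes was taken for these counts.

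The fibroblast subsets that the markers separate each had a median ratio above 1.5, though not every member did. In fibroblasts with *Adamdec1*, a protease gene of lamina propria fibroblasts, 5 of 10 genes passed 1.5-fold with a median ratio of 1.54 (4239 WT and 9904 *A20ZF7* cells), where 11.8% of genes tested did. In *Adamdec1*-negative fibroblasts 6 passed with a median of 1.73 (586 and 1222 cells), against 14.8% of genes. In those with subepithelial *Bmp* genes (294 and 276 cells) the median was 1.59, and 5 of the 9 members with enough UMIs passed, against 13.4% of genes. *Nlrc5*, the member with too few UMIs there, had a ratio of 1.72 (0.808 to 3.80) but lay below both WT mice, at 0.636 and 0.936 over them, and *Tap2* stood at 0.761 (0.411 to 1.38). *H2-K1* had ratios of 1.61 (1.57 to 1.65), 1.91 (1.78 to 2.07) and 1.70 (1.52 to 1.91) in the 3 subsets. *Tapbp* stayed near 1 in the first of these subsets, at 1.01 and 0.980, and was 1.23 (0.921 to 1.64) in the last.

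Free RNA and transcripts of other cells reached fibroblasts in both libraries, more so in *A20ZF7*. In barcodes with 1 to 20 UMIs the members were present at 984 (WT) and 1348 CPM (*A20ZF7*) for *H2-K1*, at 1514 and 1869 CPM for *B2m* and at 36.9 and 83.3 CPM for *Nlrc5*. The free RNA itself thus had a ratio of 1.37 (1.23 to 1.53) for *H2-K1*, 1.64 (1.01 to 2.72) for *Tap1* and 2.26 (1.32 to 3.99) for *Nlrc5*, but 0.799 (0.569 to 1.12) for *Psmb9*. Fibroblast levels lay above the free RNA of their own library for 7 of 10 genes in WT and for 9 in *A20ZF7*. Among the latter *Psmb8* was close to it, at 234 against 218 CPM. *Nlrc5* lay below it in both libraries, so its fibroblast level cannot be told from that of free RNA, and *Psmb8* and *Psmb9* lay below it in WT. The WT level of *Tap1*, 51.2 CPM (46.1 to 56.8), was within counting error of the free RNA at 49.8 CPM. So of the 5 genes past 1.5-fold in fibroblasts, *H2-K1* alone had a WT level above free RNA beyond counting error, at 1463 CPM.

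If all *Igha*, a plasma cell transcript, found in fibroblasts were free RNA, free RNA would make up 42.3% of fibroblast UMIs in WT and 63.2% in *A20ZF7*. Taken off at these shares, the fibroblast ratios were 2.35 for *H2-K1*, 2.03 for *B2m* and 1.36 for *Tapbp*, and 9 of 10 genes passed 1.5-fold. Treated the same way, 20.7% of genes with a level above 0 left passed it, and their median was 1.06 against 2.18 for the members. Estimated in this way, the share in *A20ZF7* was 8.92% in epithelial cells but 71.9% in smooth muscle cells. In smooth muscle cells the step left *Tap1* at -1.81 CPM in *A20ZF7* and *Psmb9* at -5.92 CPM in WT. The shares may thus be too high, and the ratios after this step with them, which was not tested. Lymphocyte marker genes summed to 902 CPM in WT and 2057 CPM in *A20ZF7* fibroblasts, T cell receptor genes to 286 and 790 CPM, and macrophage markers to 73.6 and 110.0 CPM. Among fibroblasts without a UMI of a T cell receptor gene (4530 WT and 7267 *A20ZF7* cells) 6 genes passed 1.5-fold, where 9.52% of all genes tested did, with a median ratio of 1.53 and 1.70 for *H2-K1*. In those cells *Nlrc5* had a ratio of 3.20, and *Tapbp* one of 1.11.

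WT fibroblasts with and without a hashtag call differed in these same genes. Hashtag reagents of this kind are antibody mixtures against CD45 and MHC class I on the cell surface, and whether the call selected for class I protein was not tested. Of WT fibroblasts 64.5% had no call, and *H2-K1* stood at 1329 CPM in these and at 1646 CPM in cells with a call, a ratio of 1.24 (1.19 to 1.29). *Nlrc5* stood at 20.4 and 49.0 CPM in the same order, but T cell receptor genes did so too, at 125 and 506 CPM, and median depth was 1041 and 1360 UMIs.

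Over the 10 genes, the level in WT fibroblasts with a call exceeded that in cells without one for 6 by their intervals and was below it for *Tapbp*, with a median ratio of 1.21. Against WT cells with a call, the *A20ZF7* fibroblasts had a median ratio of 1.37, with all 10 intervals above 1 and 2 genes past 1.5-fold, *Tap1* at 2.08 (1.77 to 2.44) and *Nlrc5* at 1.61 (1.35 to 1.92), where 8.69% of all genes tested passed. Against WT cells without a call the median was 1.69 and 7 genes passed, where 15.4% of all genes did. The direction of the comparison therefore did not depend on the call for 9 of the 10 genes, while the size did, and *Tapbp* went from 1.09 (1.0 to 1.18) to 0.962 (0.898 to 1.03).

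**Figure D2:**
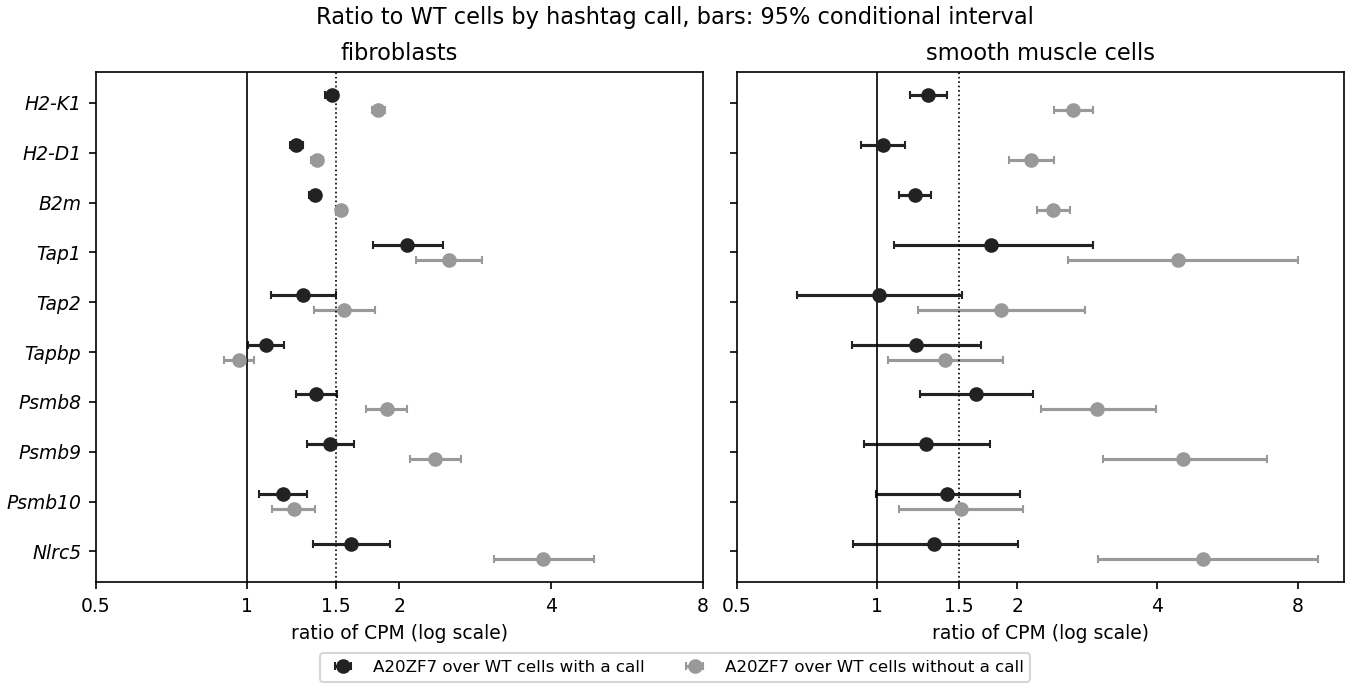
Ratio of CPM (log scale) in *A20ZF7* over WT cells with a hashtag call (black) or without (grey), for fibroblasts and smooth muscle cells, with bars for the 95% conditional interval. The solid line marks 1 and the dotted line 1.5: in fibroblasts the 10 black points lie above 1, and 2 of them beyond 1.5.

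In WT fibroblasts the hashtag signal and class I transcripts went together. Fibroblasts without a UMI of *Ptprc* or a T cell receptor gene were ranked by hashtag UMIs per 100 antibody UMIs into 4 groups of 1044 or 1045 cells, with medians of 9.56, 11.2, 13.1 and 17.6. *H2-K1* stood at 1048, 1326, 1416 and 1723 CPM from the lowest to the highest group, *B2m* at 1822, 2068, 2176 and 2396 CPM, and *H2-D1* at 1200.0, 1414, 1592 and 1679 CPM. *Psmb8* went from 87.0 to 161 CPM and *Psmb9* from 70.0 to 114 CPM, while the intervals of *Tap1* (44.0 CPM in the lowest group, 53.6 CPM in the highest) overlapped. *Col1a2*, a collagen gene, went the other way from 2024 to 1652 CPM. Other lymphocyte markers went from 91.5 to 539 CPM over the 4 groups and median depth from 974 to 1227 UMIs, and their part in the order was not tested.

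Smooth muscle cells (1567 WT, 888 *A20ZF7*) showed the highest median ratio of the classes with 10 members tested, 1.84, with 7 of 10 genes past 1.5-fold, where 12.8% of 7797 genes were. *H2-K1* stood at 1210.3 against 633 CPM, a ratio of 1.91 (1.77 to 2.07), and *Psmb8* at 162 against 70.9 CPM, a ratio of 2.29 (1.82 to 2.88). All 10 levels in WT and 8 of 10 in *A20ZF7* lay below the free RNA of their library, so most of these values cannot be told from free RNA. In *A20ZF7* the *Psmb9* level was 112 CPM in these cells and in free RNA alike. WT cells without a hashtag call (71.2% of the class) had 459 CPM of *H2-K1* and those with a call 939 CPM. Against WT cells with a call the median ratio was 1.28, with 2 genes past 1.5-fold, where 8.26% of all genes were, and 4 intervals above 1.

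In endothelial cells (238 WT, 329 *A20ZF7*) all 10 levels lay above free RNA in both libraries, and free RNA scaled by *Igha* made up 6.69% and 24.6% of UMIs. Here 3 of 10 genes passed 1.5-fold, where 12.1% of 2347 genes did, and the median ratio was 1.20. *Tap2* stood at 184 against 93.1 CPM, a ratio of 1.97 (1.25 to 3.19), *Psmb9* at 338 against 183 CPM, a ratio of 1.85 (1.33 to 2.59), and *Nlrc5* at 128 against 65.2 CPM, a ratio of 1.96 (1.13 to 3.52). Each lay above both WT mice, which had 107 and 70.4 CPM of *Tap2*, 170 and 211 CPM of *Psmb9*, and 75.5 and 70.4 CPM of *Nlrc5*. *H2-K1* (1.15, 1.03 to 1.28) and *B2m* (1.12, 1.02 to 1.23) differed less than in fibroblasts by their intervals, and *H2-D1* stood at 1.01 (0.893 to 1.14). Counts are small here: *Nlrc5* rests on 21 WT and 39 *A20ZF7* UMIs.

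In plasma cells (259 and 331 cells) the median ratio of the members was 1.41, beside 1.54 over all genes tested there, so the members were not above the rest of that class. In macrophages or monocytes (82 and 329 cells) the median ratio was 1.09, and ratios between the WT mice spanned 0.448 to 5.37 with 30 and 20 cells. In epithelial cells (387 and 50 cells) it was 0.924.

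**Figure D3:**
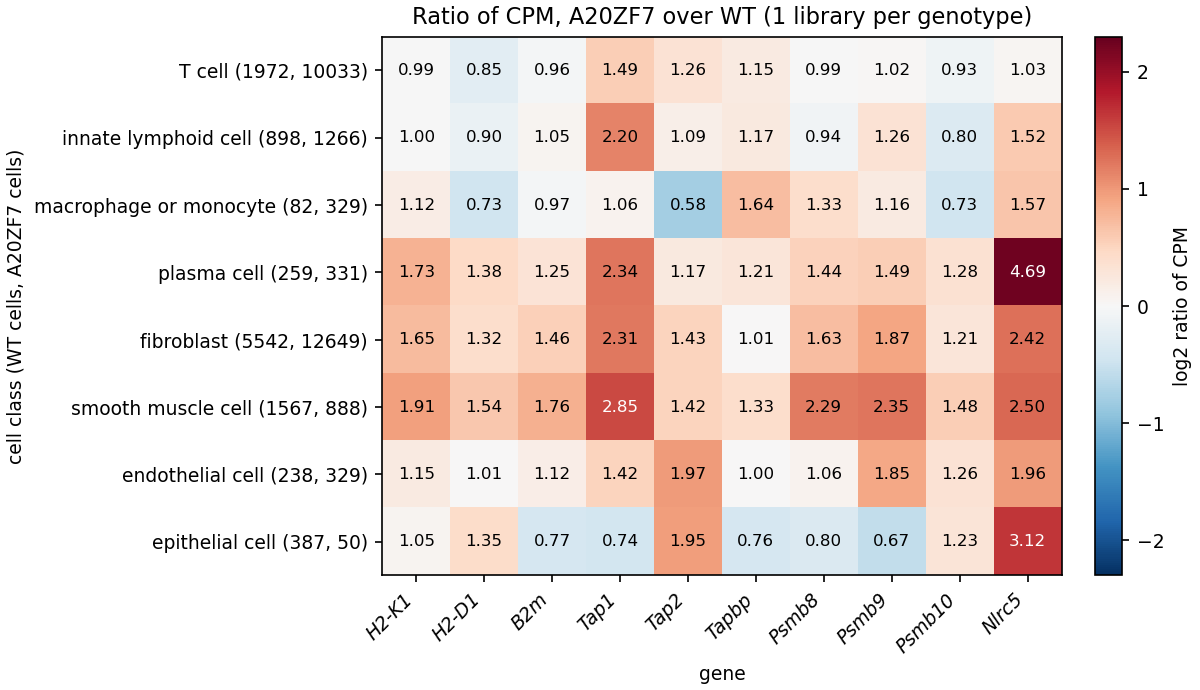
Ratio of CPM, *A20ZF7* over WT, for the 10 genes (columns) in 8 cell classes (rows, with WT and *A20ZF7* cell numbers), coloured on a log2 scale. The rows of fibroblasts, smooth muscle cells, plasma cells and endothelial cells hold no ratio below 1, with medians of 1.54, 1.84, 1.41 and 1.20. The row of T cells runs from 0.85 to 1.49.

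Within a library, where both classes share handling and the source of free RNA, though at different estimated shares, the order of T cells and fibroblasts differed between genotypes. For *H2-K1* the level in fibroblasts over that in T cells was 0.707 (0.683 to 0.732) in WT, 0.741 and 0.823 in the WT mice, and 1.18 (1.16 to 1.20) in *A20ZF7*. *B2m* gave 0.793 (0.771 to 0.817) in WT and 1.20 (1.18 to 1.22) in *A20ZF7*, and *H2-D1* 0.981 (0.944 to 1.02) and 1.53 (1.5 to 1.56). In *A20ZF7* the fibroblast thus stood above the T cell for all 3 chains, and in WT below it for *H2-K1* and *B2m*, for *B2m* also in both mice (0.836 and 0.853). For *H2-D1* the WT classes were alike within counting error, at 1.05 and 1.02 in the mice, and with free RNA taken off the WT fibroblasts stood higher, at 2025 against 1799 CPM.

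Before free RNA was taken off, *Psmb8* and *Psmb9* stayed below the T cell level in fibroblasts of both libraries but came nearer to it. They went from 0.50 to 0.819 and from 0.479 to 0.878. *Tap1* went from 0.597 (0.502 to 0.713) to 0.925 (0.863 to 0.992) and *Nlrc5* from 0.247 (0.208 to 0.294) to 0.579 (0.536 to 0.625). *Tapbp* was the reverse case: it was higher in fibroblasts than in T cells in both libraries, by 2.03 in WT and 1.79 in *A20ZF7*. With free RNA taken off, *A20ZF7* fibroblasts also stood above T cells for *Psmb9* (316 against 305 CPM) and *Tap1* (181 against 169 CPM). *Psmb8* stayed below, at 261 against 346 CPM. T cells and ILCs were close in both, with *H2-K1* at 1.02 and 1.02 for T cells over ILCs, and *Nlrc5* higher in T cells by 1.87 (1.43 to 2.48) in WT and 1.27 (1.05 to 1.54) in *A20ZF7*.

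**Figure D4:**
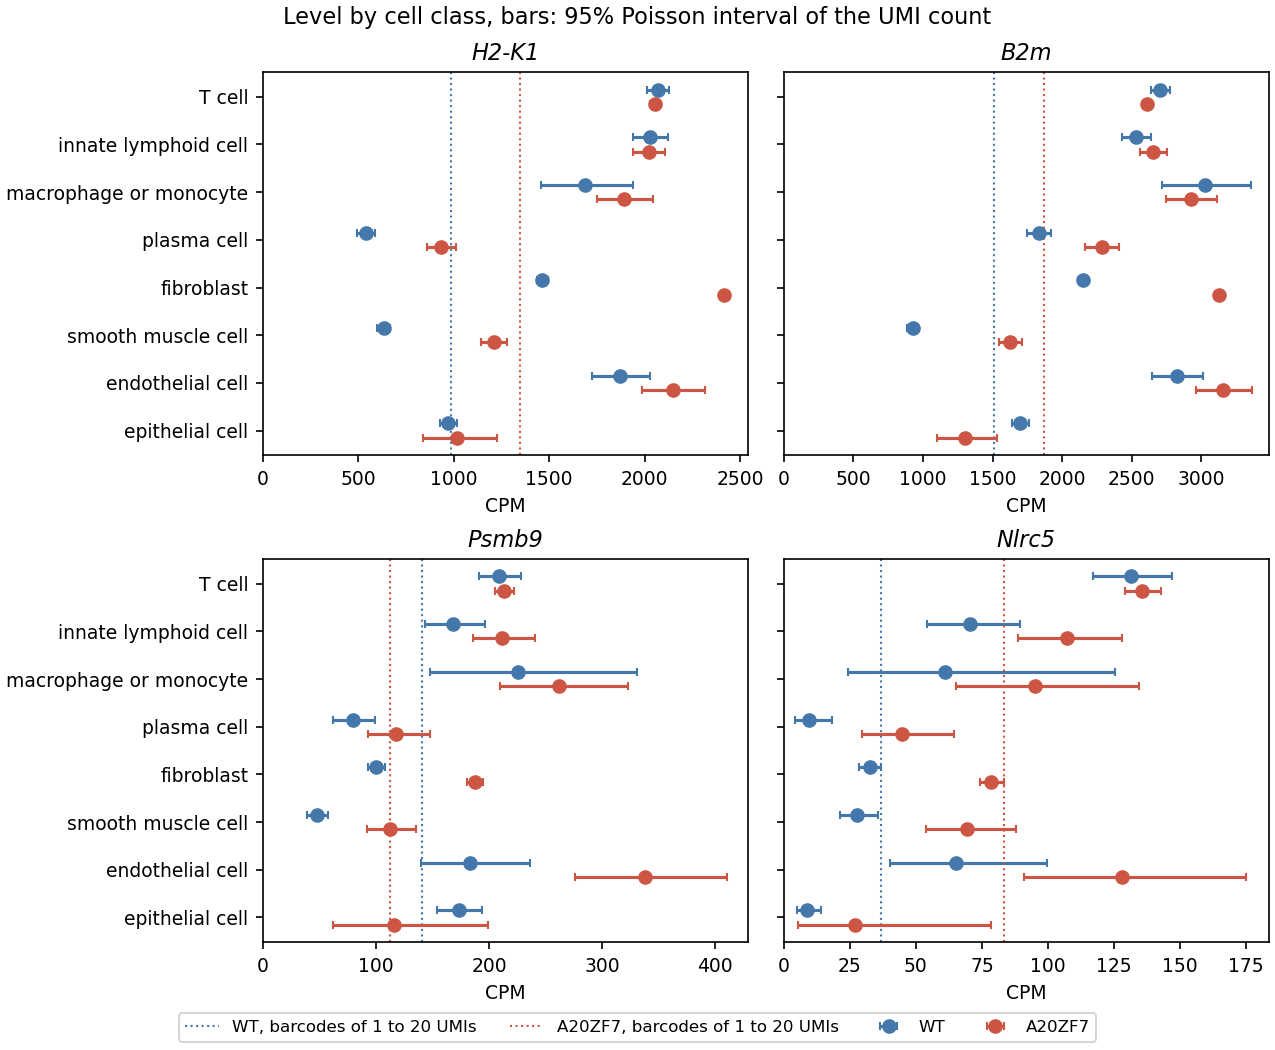
Level (CPM) of *H2-K1*, *B2m*, *Psmb9* and *Nlrc5* in 8 cell classes of WT (blue) and *A20ZF7* (red), with bars for the 95% Poisson interval and dotted lines for the level in barcodes of 1 to 20 UMIs. In WT the *H2-K1* level of fibroblasts, 1463 CPM, lies left of that of T cells, 2069 CPM, and in *A20ZF7* it lies right of it, at 2418 against 2054 CPM.

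Across the 8 classes, *H2-K1* in WT ran from T cells (2069 CPM), ILCs (2028 CPM), endothelial cells (1872 CPM) and macrophages (1686 CPM) to fibroblasts (1463 CPM), then epithelial cells (971 CPM), smooth muscle cells (633 CPM) and plasma cells (540 CPM). The first 5 of these overlap with their neighbours within counting error, and the last 3 do not. In *A20ZF7* fibroblasts led with 2418 CPM, apart from endothelial cells (2148 CPM), which overlap with T cells (2054 CPM), and plasma cells were last with 934 CPM. *B2m* was highest in macrophages in WT (3024 CPM), within error of endothelial cells (2824 CPM), and in endothelial cells in *A20ZF7* (3156 CPM), there within error of fibroblasts (3127 CPM).

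*Tapbp* had its highest level in fibroblasts in both genotypes, apart from the next class in WT and within error of macrophages (214 CPM) in *A20ZF7*. *Psmb10* was highest in epithelial cells (248 and 304 CPM), where the *A20ZF7* level rests on 34 UMIs, and in both libraries within error of the next class. *Nlrc5* was highest in T cells, apart from ILCs in WT but within error of endothelial cells (128 CPM) in *A20ZF7*. *Nlrc5* had the widest span of the 10 genes in WT, 15.3-fold from T cells to epithelial cells (131 to 8.59 CPM, the latter on 15 UMIs). The spans of *H2-K1* were 3.83-fold in WT and 2.59-fold in *A20ZF7*, and those of *Psmb8* 4.05-fold and 1.76-fold. For *Psmb8* in *A20ZF7* all 7 pairs of neighbours in the order overlapped.

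Within T cells, 6 subsets with at least 50 cells in both libraries were compared. *H2-K1* ran from 1343 CPM in naive or central memory T cells to 2359 CPM in Th1 or NKT cells in WT, and from 1746 CPM in dividing T cells to 2149 CPM in Th1 or NKT cells in *A20ZF7*. *Nlrc5* was lowest in dividing T cells (73.4 and 95.3 CPM) and highest in CD8 T cells (196 and 171 CPM) in both libraries, but in WT these rest on 10 and 29 UMIs and their intervals overlap. Th17 cells, the subset in which WT had 169 and *A20ZF7* 3192 cells, had 2155 and 2072 CPM of *H2-K1*, a ratio of 0.961 (0.880 to 1.05), and no member past 1.5-fold, where 19.9% of genes tested there were higher by it. *H2-D1* was lower there too, at 0.783 (0.708 to 0.868). In CD8 T cells *Tap1* had a ratio of 4.39 (1.92 to 12.3), from 40.6 to 178 CPM, but the WT value rests on 6 UMIs in 108 cells, 1 and 5 of them in the WT mice, over which the ratio was 11.8 and 2.74. Of the 10 members 3 passed 1.5-fold in CD8 T cells, where 12.6% of genes tested did. Naive or central memory T cells (55 WT and 190 *A20ZF7* cells) had a median ratio of 1.48. There *H2-K1* had 1.54 (1.22 to 1.95), and 1.56 and 1.21 over the WT mice, which gave 16 and 22 cells. Median ratios were 0.923 in Th1 or NKT cells, 0.947 in dividing T cells and 1.06 in gamma-delta T cells. No share over all genes was taken for these subsets. Since subsets differ in number between the libraries, the T cell ratios were also taken with subsets weighted equally, where 1 gene, *Tap1* at 1.57, passed 1.5-fold, against 12.9% of all genes.

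Per cell, fibroblast counts of the 10 genes were higher in *A20ZF7* at the percentiles read, from the 10th to the 90th. The counts per cell are few and include free RNA, so they cannot show whether all fibroblasts or a part of them differed. With each cell thinned to 500 UMIs, the 10 genes gave a mean of 2.91 UMIs (SD 2.01 over cells) in WT fibroblasts and 4.36 (SD 2.32) in *A20ZF7* fibroblasts, the median was 3 and 4, and the range from the 10th to the 90th percentile 1 to 6 and 2 to 7. The share of fibroblasts with 5 or more UMIs of the list was 19.5% in WT and 43.2% in *A20ZF7*, and that with none was 8.72% and 2.16%. In T cells the means were 3.66 and 3.57, and 31.8% and 29.9% of cells had 5 or more. Cells below 500 UMIs were left out, 754 fibroblasts and 1052 T cells of *A20ZF7* and none of WT.

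*H2-K1* was detected in 48.8% of thinned WT fibroblasts and 68.9% of *A20ZF7* ones (75.2% and 86.9% unthinned). In smooth muscle cells, where the level lay below free RNA, it was detected in 22.1% and 40.9%, and in T cells in 61.6% and 63.3%. Detection in a cell includes free RNA, since no class here is known to lack *H2-K1*.

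**Figure D5:**
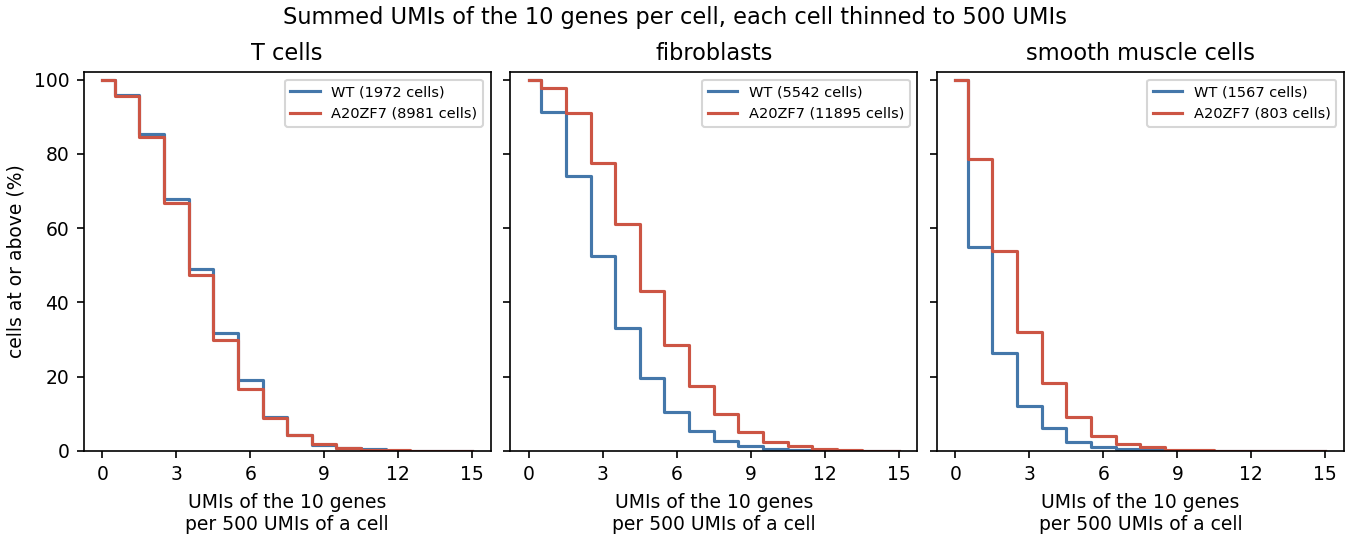
Share of cells (%) at or above a given number of UMIs of the 10 genes, each cell thinned to 500 UMIs, for T cells, fibroblasts and smooth muscle cells of WT (blue) and *A20ZF7* (red). The curves of T cells lie on each other, and that of *A20ZF7* fibroblasts lies to the right of WT, with 43.2% against 19.5% of cells at 5 or more.

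Other genes of the pathway were read from lists, which were chosen with earlier results of these data known. Genes named for T cells had the largest ratios of their list there. Those named for fibroblasts below were singled out after their values were seen. Of the other class I and class I-like genes, 11 were tested in fibroblasts. Of these 3 passed 1.5-fold upward and 2 downward, where 11.6% and 11.4% of all genes tested did. *H2-Q6* stood at 300.3 against 119 CPM (165 and 167 CPM in the mice), a ratio of 2.53 (2.35 to 2.73). *H2-Q7* stood at 403 against 181 CPM (236 and 285 CPM in the mice), a ratio of 2.22 (2.09 to 2.36). *H2-Q4* stood at 262 against 171 CPM (186 and 207 CPM in the mice), a ratio of 1.53. The WT mice thus lay nearer to *A20ZF7* than all WT cells did. *Fcgrt*, a class I-like receptor that binds antibody and no peptide, was lower, at 109 against 179 CPM (155 and 153 CPM in the mice). Its ratio was 0.605 (0.562 to 0.652), and the low *H2-Q2* was lower too. H2-Q genes are near copies of *H2-K1* and *H2-D1*, so reads can be lost or shared between them, and each of these levels is uncertain.

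The proteasome activator subunits stood higher in fibroblasts and the standard subunits did not. *Psme1* had a ratio of 1.51 (1.43 to 1.60) and *Psme2* one of 1.47 (1.38 to 1.57). *Psme1* stood at 382 against 252 CPM, with 295 and 296 CPM in the WT mice. *Psmb5* and *Psmb6*, which immunoproteasome subunits replace, had 0.924 (0.859 to 0.995) and 0.922 (0.852 to 0.998). Of 7 genes of this list 2 passed 1.5-fold upward, where 11.6% of all genes tested did. These were *Psme1* and the low *Psme2b*, at 7.93 against 4.76 CPM, a ratio of 1.67 (1.13 to 2.52). None of the 6 other loading and trimming genes passed it, and the chaperone *Calr* stood at 0.710 (0.679 to 0.741), against *Tapbp* at 1.01. None of the 7 partners of the transactivator that were tested passed it. Among the interferon receptors, kinases and factors, *Jak2*, a kinase of the interferon-γ receptor, stood at 147 against 71.9 CPM (94.3 and 105 CPM in the mice). Its ratio was 2.04 (1.85 to 2.25), and 0 genes of this list passed downward.

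In T cells *Ifngr2*, a chain of the interferon-γ receptor, passed upward among the receptors, kinases and factors, at 1.55 (1.05 to 2.37), and 0 genes passed downward. *Rfx5* (0.642, 0.440 to 0.956), which binds class I promoters with Nlrc5, and *H2-Q10* (0.624, 0.400 to 1.0) were the genes of the other lists past the limit. *Canx* (1.18) lay furthest from 1 among the other loading and trimming genes, and *H2-T22* (1.28) came after *H2-Q10* in its list. Over all T cells *Ifng*, the cytokine known to raise all members, stood at 92.1 CPM in *A20ZF7* against 111 CPM, a ratio of 0.830 (0.724 to 0.955). T cells were more numerous in the *A20ZF7* library, and their subsets differed in number. By subset *Ifng* went both ways. WT and *A20ZF7* had 77.7 and 124 CPM in Th17 cells and 497 and 650 CPM in Th1 or NKT cells, whose gate uses *Ifng*. CD8 T cells had 129 and 81.8 CPM, and dividing T cells 169 and 59.7 CPM. In ILCs the ratio was 1.56 (1.01 to 2.46). T cells held 39.2% of the *Ifng* UMIs of WT cells and 42.9% of those of *A20ZF7* cells. In fibroblasts *Ifng* stood at 13.7 and 27.7 CPM, below the free RNA level of 31.4 and 36.8 CPM.

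Over 41 profiles of a class in a library, the members did not all move together. *H2-K1* and *H2-D1* had a Pearson r of 0.896 on log2(CPM + 20), *H2-K1* and *B2m* 0.836 and *Psmb8* and *Psmb9* 0.810. The median r of a gene to the others ran from 0.745 for *H2-K1* down to 0.310 for *Psmb10* and 0.137 for *Tapbp*. These are descriptions, since profiles share libraries and free RNA and differ in depth. The genes outside the list most like the mean of the 10 were *Elmo1* (r = 0.815), *Elf4*, *Arl15*, *H2-Q7* (0.807), *Arhgef3*, *AW112010*, *Gbp8* and *H2-Q6* (0.796). Most like *H2-K1* were *AW112010* (0.864), *H2-Q7* (0.852) and *Elmo1* (0.849), most like *Psmb8* were *Ucp2* (0.802), *Orai1* (0.766) and *Psme1* (0.758), and most like *Nlrc5* were *Prkch* (0.944), *H2-Q7* (0.938) and *Itpkb* (0.922).

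The antibody panel used on WT cells held 1 antibody to a class I molecule, H2-Kb with a bound ovalbumin peptide, which is not a measure of total class I. It took 0.944% to 1.15% of antibody UMIs over the 8 classes, and the mean isotype control 0.172% to 0.216%. The span of this share over classes was small beside that of the *H2-K1* transcript in the same cells, 540 to 2069 CPM. Median UMIs of the antibody were 38 in endothelial cells, where the isotype mean was 6.67, and 16 to 22.5 in the other classes. Whether class I protein follows the transcript over these classes was not tested, and no protein level by class was taken from this antibody.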

How the data were processed

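The deposited matrices hold UMI counts, and antibody UMI counts for WT. The study names mm10 as the reference. Cell Ranger was 8.0.0 per the file headers of the gene expression matrices and 7.1 per the submitters' processing notes. The gene expression matrices of WT and *A20ZF7* list different numbers of gene identifiers, so a single annotation cannot hold for both. Values were read with Python 3.11.15, scipy 1.17.1 and pandas 2.3.3. Cells needed 200 to 2500 genes, at most 15% mitochondrial counts and a UMI total above 0.1 times the 0.99 quantile (675 in WT, 397 in *A20ZF7*). WT barcodes called for both hashtags (HTODemux, Seurat 5.3.0 in R 4.3.3, quantile 0.99) were removed. Other doublets were kept, and Scrublet (scanpy 1.11.5) scored 1.61% of WT and 0.994% of *A20ZF7* cells above 0.25. The antibody files listed for *A20ZF7* equal those of WT and were not used for *A20ZF7*.

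A class is the lineage with most marker UMIs, from at least 2 markers and over 60% of lineage marker UMIs, and T cells had at least 2 UMIs of *Cd3e*, *Cd3d*, *Cd3g*, *Trac* or *Trdc*. These limits were set on marker counts after the files had been seen. The members and lists were chosen with earlier results of these data known. UMIs were summed per class. CPM have exact Poisson intervals and ratios exact conditional ones, and genes with at least 50 UMIs over both libraries were counted as tested. No test was run, since cells are not replicates. Named genes were the members, the 2 largest ratios per pathway list in T cells, and the genes most like the members with at least 20 CPM in the median profile. The values of 1 gene so named are not reported here. The ratio step was tested on simulated data. Alternatives changed the cell limits, gates, hashtag treatment, depth, free RNA and WT mouse, and the closing section gives their effect.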

Additional observations from a re-analysis of the deposited data

Results flagged for a closer look

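The ratio between genotypes lay on opposite sides of 1 in T cells and in fibroblasts for *H2-D1*, at 0.846 in T cells and 1.32 in fibroblasts, and for *B2m*, at 0.964 in T cells and 1.46 in fibroblasts. What marked them is that the 95% counting interval lay wholly below 1 in T cells and wholly above 1 in fibroblasts. *H2-K1* and *Psmb10* also lay below both WT mice in T cells and above both in fibroblasts, but their T cell intervals include 1. The mouse levels leave out WT cells without a hashtag call. Over such WT T cells the ratios were 1.15 (1.06 to 1.25) for *H2-K1* and 1.09 (0.785 to 1.55) for *Psmb10*. The difference was not tested, because each genotype is 1 library. The *H2-D1* ratio in T cells stayed between 0.809 and 0.880 over the alternatives. With *H2-K1* at 0.993 in T cells, *H2-D1* had the lower ratio of the pair, but not there alone. In fibroblasts *H2-D1* and *H2-K1* had 1.32 and 1.65, in ILCs 0.904 and 0.996, and in smooth muscle cells 1.54 and 1.91. In endothelial cells they had 1.01 and 1.15, in plasma cells 1.38 and 1.73, and in macrophages 0.730 and 1.12. Epithelial cells went the other way, at 1.35 and 1.05. Whether the gene annotation, which differs between libraries, shifts the *H2-D1* ratio was not tested. For *B2m* the T cell ratio was 1.05 after free RNA was taken off, so its place below 1 is not firm.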

How the results depend on the processing

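In T cells the count of genes past 1.5-fold was 0 and became 1 with an upper limit of 5000 genes, at least 3 markers, a purity of 80%, barcodes of both hashtags kept, thinned cells, the WT mouse of hashtag 7 alone, subsets weighted equally and, added after the data were seen, the UMI threshold of WT in both libraries or WT cells without a hashtag call, and 2 with free RNA taken off. In ILCs it was 2 and became 1 with at least 1000 UMIs, the limit of 200 genes alone, at least 3 markers, a purity of 80%, barcodes of both hashtags kept, the WT mouse of hashtag 8 alone, subsets weighted equally and, added later, WT cells with a hashtag call, and *Nlrc5* went from 1.52 to 0.934 at 1000 UMIs. Against the WT mouse of hashtag 7 alone, ILCs had *Tap1* at 1.86, *Tapbp* at 1.54 and *Nlrc5* at 1.51, all past 1.5-fold. Over WT ILCs without a call (added later) *Psmb10* was at 0.599, past 1.5-fold downward. In fibroblasts the count was 5 and became 9 with free RNA taken off. It was 3 against the WT mouse of hashtag 7 or 8 alone and 2 against WT cells with a call (added later). The share of all genes past 1.5-fold upward in fibroblasts was 20.7% with free RNA taken off and 8.69% against WT cells with a call. In T cells it was 18.4% with free RNA taken off and 12.9% with subsets weighted equally. For the other settings named here no such share is given, so those counts cannot be set against all genes. Over 19 settings of the 10 fibroblast ratios, 187 of 190 values were above 1, and those of *H2-K1* ran from 1.41 to 2.35 and those of *Psmb9* from 1.38 to 4.47. The cause of these shifts was not tested. No paired analysis was possible because mice were pooled and the genotypes share no pairing. Depth limits *Nlrc5*, *Tap1* and *Tap2* in the small classes, where intervals span 1.5-fold or more.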
